A study of Mus musculus with 3 samples.

Results

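The regions described here were the annotated start sites of long intergenic noncoding RNA (lincRNA) genes, and what was measured at each was how often its chromatin was open in single mouse hematopoietic stem cells (HSCs). They were defined by annotation and not by their own fragments, as GENCODE vM21 genes of type lincRNA on chromosomes 1 to 19 whose start lay over 5 kb from every protein-coding gene start and outside the stretch of chromosome 17 from 39.8 to 39.9 Mb that holds ribosomal DNA sequence. Of 5209 lincRNA genes on these chromosomes, 4584 met the rule, 622 lay within 5 kb of a coding start and 3 lay in the chromosome 17 stretch. The same chromosomes hold 51229 annotated gene starts of every type, and the 4584 were compared with the 20807 protein-coding starts among them. The cells were wild-type long-term HSCs from the bone marrow of 8-week-old female C57BL/6J mice, enriched for c-Kit and sorted as LSK CD150+CD48-CD34- cells. They were profiled by DOGMA-seq, which reads chromatin accessibility (ATAC), RNA and antibody tags from the same cells, and only the 1 ATAC library was used here. There was 1 preparation with no treatment and no second group, so no value below has a replicate and no test between groups was possible.

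LincRNAs are transcripts that are spliced and capped much like messenger RNAs but encode no known protein. Some build nuclear bodies, some host microRNAs or small nucleolar RNAs in their introns, some act on neighboring genes through the act of their own transcription, and for most no role is known. An active promoter is depleted of nucleosomes just upstream of its start, and the Tn5 transposase used in ATAC-seq cuts there and releases short fragments. Many mammalian promoters that are active across tissues lie in CpG islands, stretches in which the CpG dinucleotide has been kept, whereas promoters without them are more often tied to particular cell types.

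Each start was measured in a window reaching 1 kb to either side. The open share of a start was the percentage of cells with at least 1 fragment overlapping the window. The 3108 cells used were called cells with more than 3000 fragments in peaks, 82.7% of the 3757 called. They held 37191101 fragments, with a median of 11457 per cell and a range of 3977 to 194395. Close to that limit lay 74 cells with over 2500 to 3000 such fragments and 91 with over 3000 to 3500. Intervals given with open shares are exact (Clopper-Pearson) 95% binomial intervals over cells, and those with fragment counts are exact 95% Poisson intervals. Both cover counting error only and say nothing of how another mouse or preparation would vary. Against the label of the cells, the starts of 10 HSC genes had a median open share of 11.4%, from 0.322% at *Mecom* to 41.6% at *Hlf*. The 4 neutrophil markers ranged from 0.0644 to 0.740%, the 3 T cell markers from 0.290 to 1.03%, and the 3 B cell markers from 0.354 to 1.93%. The 3 megakaryocyte genes ranged from 16.7 to 22.6%, the 4 erythroid genes from 0.129 to 9.81%, and the 4 stromal and endothelial genes from 0.869% at *Lepr* to 16.9% at *Col1a1*. The part of such cells in the lincRNA values was not tested.

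The lincRNA starts that led the list by open share were *6720427I07Rik*, *Neat1*, *Gm6410*, *1700096K18Rik*, *Gm26901* and *Malat1*. Their open sequence is shown first because these starts carry the finding that a small set of intergenic noncoding promoters was open in most cells. For each, the 300 bp of the window with the most fragment ends is printed 5' to 3' on the strand of the gene, from GRCm38. The stretch lay at chr13:48546481-48546780 (minus strand) for *6720427I07Rik*, chr19:5845366-5845665 (minus strand) for *Neat1*, chr8:4678390-4678689 (plus strand) for *Gm6410*, chr5:25529633-25529932 (plus strand) for *1700096K18Rik*, chr1:7397885-7398184 (minus strand) for *Gm26901* and chr19:5803368-5803667 (minus strand) for *Malat1*. Capitals mark exact matches, on either strand, to any of 12 short strings named for the factors that bind such sequences.
6720427I07Rik: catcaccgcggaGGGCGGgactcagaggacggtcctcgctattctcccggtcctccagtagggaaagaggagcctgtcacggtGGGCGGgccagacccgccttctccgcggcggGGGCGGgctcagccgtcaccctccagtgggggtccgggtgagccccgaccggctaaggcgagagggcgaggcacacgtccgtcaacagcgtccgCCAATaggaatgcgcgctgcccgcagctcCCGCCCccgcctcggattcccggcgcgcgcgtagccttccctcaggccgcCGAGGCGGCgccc
Neat1: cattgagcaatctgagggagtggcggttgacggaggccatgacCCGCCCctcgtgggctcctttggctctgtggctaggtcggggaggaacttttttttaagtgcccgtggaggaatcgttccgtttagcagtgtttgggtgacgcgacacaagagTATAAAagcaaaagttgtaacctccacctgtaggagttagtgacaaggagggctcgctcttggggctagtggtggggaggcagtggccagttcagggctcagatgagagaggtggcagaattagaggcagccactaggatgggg
Gm6410: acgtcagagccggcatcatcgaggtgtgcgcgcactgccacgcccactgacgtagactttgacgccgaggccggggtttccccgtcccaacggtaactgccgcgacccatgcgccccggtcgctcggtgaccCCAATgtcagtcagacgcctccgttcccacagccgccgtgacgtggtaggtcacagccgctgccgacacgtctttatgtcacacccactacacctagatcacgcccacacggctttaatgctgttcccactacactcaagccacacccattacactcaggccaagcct
1700096K18Rik: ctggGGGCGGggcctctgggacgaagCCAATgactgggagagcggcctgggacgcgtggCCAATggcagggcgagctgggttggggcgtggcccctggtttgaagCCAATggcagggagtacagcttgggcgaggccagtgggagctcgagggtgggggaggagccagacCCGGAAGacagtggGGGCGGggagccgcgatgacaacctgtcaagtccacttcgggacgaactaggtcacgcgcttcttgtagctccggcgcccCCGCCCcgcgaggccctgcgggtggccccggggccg
Gm26901: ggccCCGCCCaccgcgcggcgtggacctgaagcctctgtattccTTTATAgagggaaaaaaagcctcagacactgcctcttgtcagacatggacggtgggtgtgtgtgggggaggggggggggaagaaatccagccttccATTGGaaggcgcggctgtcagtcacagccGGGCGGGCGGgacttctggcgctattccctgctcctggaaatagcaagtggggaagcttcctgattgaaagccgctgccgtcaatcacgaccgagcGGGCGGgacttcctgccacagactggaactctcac
Malat1: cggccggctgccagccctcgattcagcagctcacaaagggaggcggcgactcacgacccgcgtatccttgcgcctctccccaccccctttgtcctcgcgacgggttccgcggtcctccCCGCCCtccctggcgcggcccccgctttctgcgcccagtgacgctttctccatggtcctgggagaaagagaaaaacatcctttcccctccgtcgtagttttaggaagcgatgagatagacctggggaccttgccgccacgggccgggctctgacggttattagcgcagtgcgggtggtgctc

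All but *Neat1* were CpG-rich by the definition used here, a GC content of at least 50% with a CpG observed over expected ratio of at least 0.6 in the 300 bp. GC content was 73.0% in *6720427I07Rik* and 70.7% in *1700096K18Rik*, and it was 55.7% in *Neat1*, where the CpG ratio was 0.522. The SP/KLF string GGGCGG was found in 5 of the 6 stretches, all but *Gm6410*. It stood in the *6720427I07Rik* stretch at 4 places and in the *Gm26901* stretch also at 4, of which 2 overlap each other. The NFY string CCAAT was found in 4 stretches and occurred 3 times in *1700096K18Rik*, which was also the only one of the 6 with the ETS string CCGGAAG. The TATA string TATAAA was found in *Neat1* on the gene strand, at bases 157 to 162 of the 300, and in *Gm26901* on the other strand. A match is a description of the letters and not of a bound site.

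Most lincRNA starts had fragments in few HSCs. The median open share was 0.257%, with 0.0965% and 0.997% as the 25th and 75th percentiles, and the median window held 9 fragments. At 247 starts no fragment was found, which allows an open share of up to 0.0965% taking 3 cells as the floor, or 0.119% by the exact interval, and 3452 starts (75.3%) had fragments in under 1% of cells. Protein-coding starts had a median open share of 9.33% and a median of 346 fragments. Per window, lincRNA starts held 80.3 fragments (95% interval 80.0 to 80.5) and protein-coding starts 797 (796 to 797), a ratio of 0.101. Over the 25391 lincRNA and coding starts, 40.9% were open in at least 10% of cells, and over coding starts alone 48.8%. Of the lincRNA starts, 224 (4.89%) were. At a limit of 5% the count was 439 (9.58%) against 58.5% of coding starts, and at 20% it was 95 (2.07%) against 33.4%. The plot of open shares shows the whole range for both kinds of start.

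**Figure D1:**
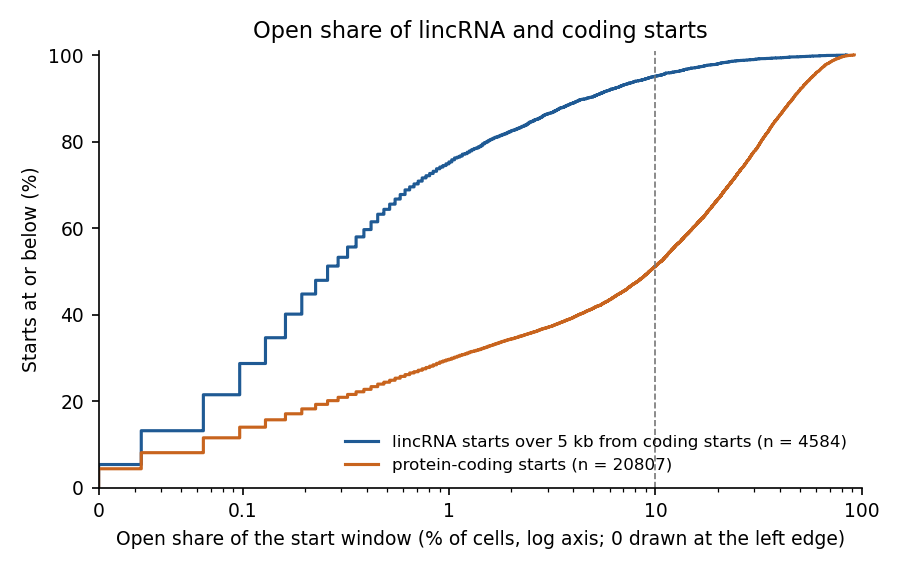
Cumulative plot of the open share of 4584 lincRNA starts and 20807 protein-coding starts, in percent of 3108 cells on a log axis. The vertical axis is the percentage of starts at or below each value, and the dashed line marks 10%. The lincRNA curve reaches 75.3% before an open share of 1%, whereas the coding curve is at 29.7% there.

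The fragments were concentrated in few starts. The 224 open starts, those open in at least 10% of cells, held 62.6% of the 367898 fragments in lincRNA windows, and the 15 highest alone held 16.2%. A median cell had a fragment at 88 of the 4584 starts (range 25 to 716), of which a median of 51 were among the 224. The number of starts with a fragment followed the depth of the cell closely (Spearman correlation 0.915 over 3108 cells of 1 library, a description). As a share of a cell's own fragments the amount varied little, with a median of 9.98 per 1000 and quartiles of 9.15 and 10.7.

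A start window was also compared with its surroundings, as the fragments in the window over the median of windows of the same width 10, 20 and 30 kb away on both sides. Windows within 2 kb of a coding or lincRNA start were left out of the flanks, and the flank level was not taken below 3 fragments. Over all starts 61.7% held at least 20 fragments and at least 2 times the flank level, and over coding starts 69.7%. Among lincRNA starts 1161 (25.3%) did. All 224 open starts were among them, with a median of 37.9-fold over flanks, compared with 64.8-fold for coding starts open in at least 10% of cells. Of the 908 starts open in 1 to 10% of cells, 769 stood at least 2-fold over their flanks, with a median of 6.18-fold. A further 168 did so among the starts open in under 1%, whose median was 0.880-fold. Enrichment over the local surroundings was thus more frequent than an open share of 10%.

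Fragment ends at the open lincRNA starts peaked in the 100 bp just upstream of the annotated start. There they averaged 294 ends per locus, 26.9 times the mean beyond 4 kb. The coding starts open in at least 10% of cells peaked in the same 100 bp at 592 ends per locus, 74.3 times the mean beyond 4 kb. Starts open in 1 to 10% of cells had a lower peak at the same position, with 21.8 ends per locus or 3.77 times the mean beyond 4 kb. The 3452 starts open in under 1% had their fullest bin within the window in the 100 bp just downstream of the start, with 0.863 ends per locus, and fuller bins outside the window, which held few fragments by the choice of this class. Since the 3 classes were set by the fragments in the window itself, their heights are a description, and the position of the peak within the window is what the classes did not fix. The most cut 300 bp was centered a median of 188 bp from the annotated start in the open lincRNA starts and 80 bp in the open coding starts. At *Malat1* its center lay 846 bp upstream and at *Gm26887* 851 bp upstream, which is near the edge of the window.

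**Figure D2:**
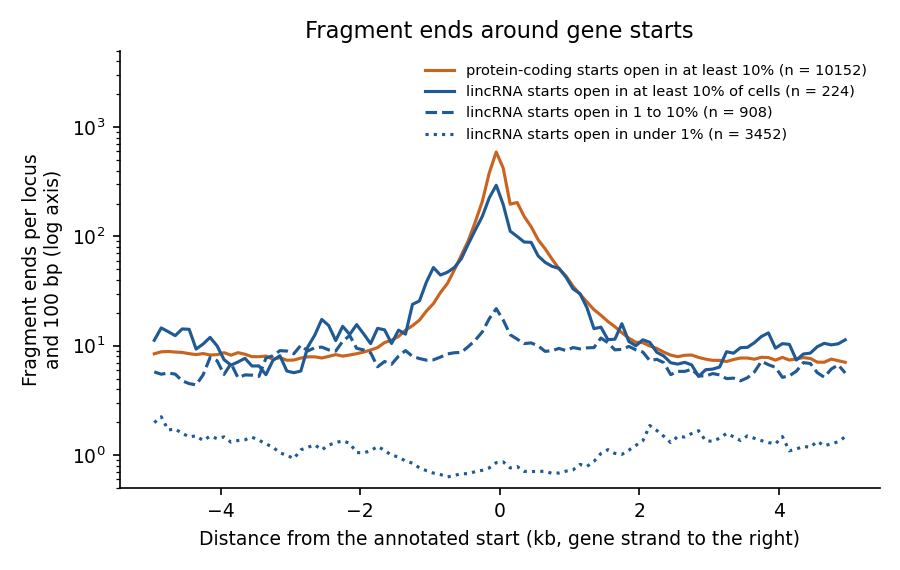
Mean number of fragment ends per locus and 100 bp, on a log axis, against the distance from the annotated start in kb with the gene strand to the right. Lines show 224, 908 and 3452 lincRNA starts by open share and 10152 open coding starts. The open lincRNA starts peak at 294 ends and the coding starts at 592, both in the bin just upstream of the start.

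Fragments shorter than the DNA wrapped around a nucleosome made up 54.4% (54.2 to 54.6) of all fragments at the open lincRNA starts. The share was 57.4% (57.4 to 57.5) at open coding starts, 38.1% (37.9 to 38.4) at lincRNA starts open in 1 to 10% of cells, and 19.1% (18.7 to 19.6) at those open in under 1%. Short fragments were therefore rarest where windows were least often open. Among the 15 starts with the highest open share the short share ran from 49.4 to 72.2% with 1 exception, *C920006O11Rik*, at 31.4% (29.7 to 33.2). The window of that gene also held the start of *Rn7sk*, which encodes the 7SK RNA that restrains transcription elongation, so its fragments cannot be assigned to either gene.

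The 15 starts with the highest open share are described by their own values, since that share chose them. *6720427I07Rik* on chromosome 13 (start at 48546500, minus strand) was open in 84.5% of cells (83.2 to 85.7), with 6767 fragments against 20.5 in the flanks. Only 33 of the 20807 coding starts had a higher open share. It lies 32.9 kb from the nearest coding start, that of *A830005F24Rik*, and no other gene start was annotated in its window. *Neat1*, the RNA scaffold of nuclear paraspeckles, was open in 79.9% (78.5 to 81.3) with 5956 fragments. *Malat1*, an abundant RNA of nuclear speckles, starts 42.8 kb away from *Neat1* on chromosome 19 and was open in 64.2% (62.4 to 65.8) with 3586 fragments. The flanks of both were the fullest among the 15, at 74 fragments for *Neat1* and 102 for *Malat1*, so that *Malat1* stood 35.2-fold over its surroundings and *Neat1* 80.5-fold.

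*Gm6410* on chromosome 8 (start at 4678462) was open in 75.9% of cells (74.3 to 77.4), with 5543 fragments in a region where the flanks held 3.5. The resulting 1584-fold was the highest among lincRNA starts with at least 100 fragments and rests on very few flank fragments. *Gm26901* on chromosome 1 (start at 7397869) was open in 67.2% (65.6 to 68.9) with 3952 fragments against 4 in the flanks, or 988-fold. It lies 309 kb from the nearest coding gene start, that of *Pcmtd1*, farther than any other of the 15. The next by fold were *Gm47096* at 631-fold, *Gm20732* at 609-fold and *Gm2885* at 503-fold, with flanks of 4.5, 6 and 5 fragments. These 5 were picked by that fold, so the few fragments in their flanks were partly fixed by the choice. *Gm47096* starts 30 bp from a transcript start of the coding gene *Pnpla8*, as given below. *1700096K18Rik* on chromosome 5 (start at 25530013), annotated with 1 exon over 1.45 kb, was open in 73.6% (72.1 to 75.2) with 4778 fragments and 12 in the flanks.

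The other 9 of the 15 had open shares from 53.5 to 63.1%. In order these were *Gm11527* (63.1%), *Gm20732* (62.7%), *Gm26887* (62.4%), *Tmem250-ps* (60.9%), *C920006O11Rik* (57.9%), *2700016F22Rik* (56.5%), *2410080I02Rik* (56.0%), *Gm47096* (53.9%) and *AC132957.1* (53.5%). From *Gm26901* downward the interval of each start overlaps that of the next, so the order of neighbors is not settled beyond counting error. The intervals of *6720427I07Rik*, *Neat1*, *Gm6410* and *Gm26901* are separate from each other, while those of *Gm6410* and *1700096K18Rik* overlap. *2410080I02Rik* starts 6.33 kb from *Klf9*, which encodes a Krüppel-like transcription factor, and *Tmem250-ps* starts 17.3 kb from *Nacc2*. 13 of the 15 were CpG-rich, and all but *Neat1* and *Gm26887* are in that count.

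Below the 15, open shares fell steadily, from 51.2% at *Gm44066* to 25.1% at *AU020206*, the last of the next 45. A few are given here as examples, chosen after their values were seen for the coding gene nearest to them, with no count or test behind the choice. *Gm36738*, 8.83 kb from *Rac2*, a small GTPase of hematopoietic cells, was open in 26.6% (25.1 to 28.2) and stood 17.1-fold over its flanks. *D730003I15Rik* near *Atf3* and *Gm26802* near *Fosb*, both genes of stress-induced bZIP factors, were open in 28.7% and 30.3%. *CR974462.6*, 18.9 kb from the class I histocompatibility gene *H2-K1*, was open in 29.0%. *Gm33195*, 79.9 kb from *Cd83*, an activation marker of dendritic and B cells, was open in 44.7% and stood 169.3-fold over its flanks. Distance alone does not tie any of these starts to the gene named.

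Open shares were higher in deeper cells at each of the 15, while the starts that led stayed the same. Cells below the median depth (median 9295 fragments) and cells above it (13532) gave the same 15 starts as the highest. The 15 were chosen over these same cells, so this agreement was partly fixed by the choice. *6720427I07Rik* was open in 80.2% of the shallower and 88.7% of the deeper cells, and *AC132957.1* in 46.8% and 60.2%. Across all lincRNA starts the median open share was 0.193% in the shallower and 0.322% in the deeper cells, and 166 and 277 starts were open in at least 10%. An open share thus depends on depth and is not the fraction of cells in which the promoter is accessible.

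**Figure D3:**
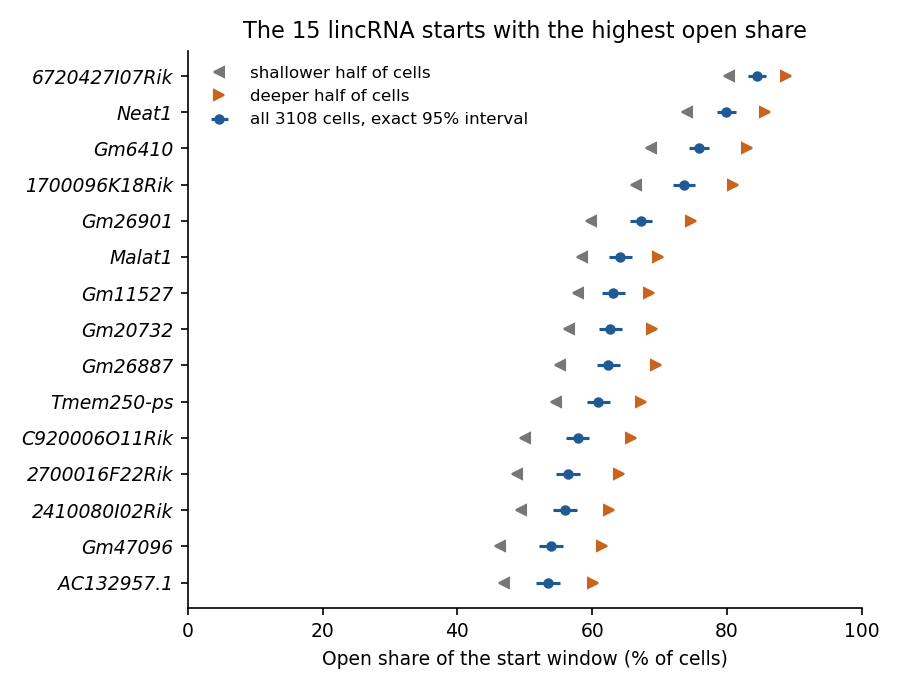
Open share, in percent of cells, of the 15 lincRNA starts with the highest values. Circles with bars give all 3108 cells with the exact 95% interval, and triangles give the shallower and the deeper cells. The shares fall from 84.5% at *6720427I07Rik* to 53.5% at *AC132957.1*, and every deeper value lies above the shallower one.

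Some leading windows were shared with other annotated starts. Of the 15, 5 had another gene start in the window, namely *Neat1*, *Gm6410*, *Malat1*, *Gm11527* and *C920006O11Rik*, and 2 had the start of a coding transcript within 1 kb. The *Gm47096* start lies 30 bp from a transcript start of *Pnpla8*, and that of *2700016F22Rik* 280 bp from one of *Ubr4*, both on the other strand, since the distance rule used gene starts and not transcript starts. Over the whole set, 24 starts had a coding transcript start within 1 kb, of which 6 were open in at least 10% of cells. The other 4 of these were *Gm26816* (35.7%, at *St3gal2*), *Gm13620* (30.5%, at *Baz2b*), *Gm13063* (20.9%, at *Epb41*) and *C530050E15Rik* (13.8%, at *Ripor2*). For these 6 the fragments cannot be told apart from those of the coding promoter. A start of any other gene stood in the window of 334 lincRNA starts, and 37 of them (11.1%) were open in at least 10% of cells, compared with 187 of the 4250 (4.40%) without one.

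Neighboring lincRNAs also shared open windows. There were 119 pairs of adjacent lincRNA starts within 2 kb of each other, and in 6 of these pairs both were open in at least 10%. *Gm44066* and *Gm26656* on chromosome 6 start 615 bp apart in divergent directions and were open in 51.2% and 50.8% of cells, and these values come largely from the same fragments. *Gm28050* and *Gm29464* (157 bp apart, 14.9% and 14.8%) and *Gm45881* and *Gm26614* (560 bp apart, 11.2% each) are divergent as well. *E230001N04Rik* and *Gm20109*, 428 bp apart near *Fkbp5*, had 30.8% and 31.4%, and *Gm47861* and *2310001H17Rik*, 449 bp apart near *Cd69*, had 14.5% and 14.2%. *Gm14235* and *E130018N17Rik*, 980 bp apart on the same strand, differed, with 20.4% (19 to 21.8) and 42.5% (40.8 to 44.3).

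On a scale of 100 kb between neighbors, 42 of the open starts fell in 19 runs, most of them of 2. The 6 open pairs described above are among the 19, with overlapping windows that share fragments. Runs among all lincRNA starts or among coding starts were not counted, so these runs are a description only. The 2 longest runs had 4 open starts each. On chromosome 13, *Gm4035* (10.3%), *Gm29458* (16.3%), *Gm47732* (36%, 34.3 to 37.7) and *Gm30918* (22.8%, 21.3 to 24.3) span 106 kb that holds 9 of the lincRNA starts, with *Ly86* as the nearest coding gene. On chromosome 17, *AC091309.4* (11.6%), *AC091309.7* (24.6%), *AC091309.2* (11.1%) and *AC091309.5* (12.1%) span 108 kb with 6 lincRNA starts, between *Haao* and *Zfp36l2*. The latter encodes an RNA-binding protein that promotes decay of AU-rich transcripts. None of these 8 starts was CpG-rich. By chromosome the share of open starts ran from 2.27% on chromosome 10 (8 of 353) to 12.6% on chromosome 17 (25 of 199), and chromosome 19 followed with 9.40% (11 of 117).

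Open lincRNA starts were more frequent close to coding genes and in CpG-rich sequence. Between 5 and 10 kb from a coding start 10.6% of lincRNA starts (28 of 264) were open in at least 10% of cells, from 50 to 100 kb 5.37% (47 of 875), and beyond 200 kb 0.956% (11 of 1151). The lincRNA starts within 5 kb of a coding start, which are outside the set, were open in 44.9% of cases (279 of 622). These 622 lay a median of 0.77 kb from a coding start, and 357 of them had another gene start in the window. In such windows the fragments cannot be assigned to the lincRNA. The rule's limit did not fall on a step, as 11.9% of the 59 starts between 4 and 5 kb and 14.8% of the 54 between 5 and 6 kb were open in at least 10%. Just inside the limit lay *Gm37584* (22.5%, 5.04 kb from *Mex3a*), *Gm32281* (18.6%, 5.16 kb from *Paqr9*) and *E230001N04Rik* (30.8%, 5.19 kb from *Fkbp5*). Just outside lay *Mir142hg* (32.0%, 4.96 kb from *Tspoap1*), the host of a microRNA abundant in blood cells, then *Gm26840* (36.8%, 4.73 kb from *Vwa1*) and *Gm13842* (39.2%, 4.72 kb from *Prkab1*).

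CpG-rich sequence marked 231 of the 4584 lincRNA starts (5.04%) and 53.5% of coding starts. Of these 231, 95 (41.1%) were open in at least 10% of cells, with a median open share of 6.60% over all 231, whereas 129 of the other 4353 (2.96%) were, with a median of 0.225%. Among CpG-rich coding starts 80.1% were open in at least 10%. The 300 bp used for this were picked by fragment ends, so in nearly empty windows they rest on few ends. By the CpG ratio of the whole 2 kb window, which uses no fragment, 50 of 75 lincRNA starts at or above 0.6 (66.7%) were open in at least 10%, and 88.2% of coding starts. Distance and CpG content were both related to the open share. Within 50 kb of a coding start 63 of 127 CpG-rich starts (49.6%) and 75 of 1580 others (4.75%) were open, and beyond 100 kb 11 of 55 and 28 of 1947 (1.44%).

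**Figure D4:**
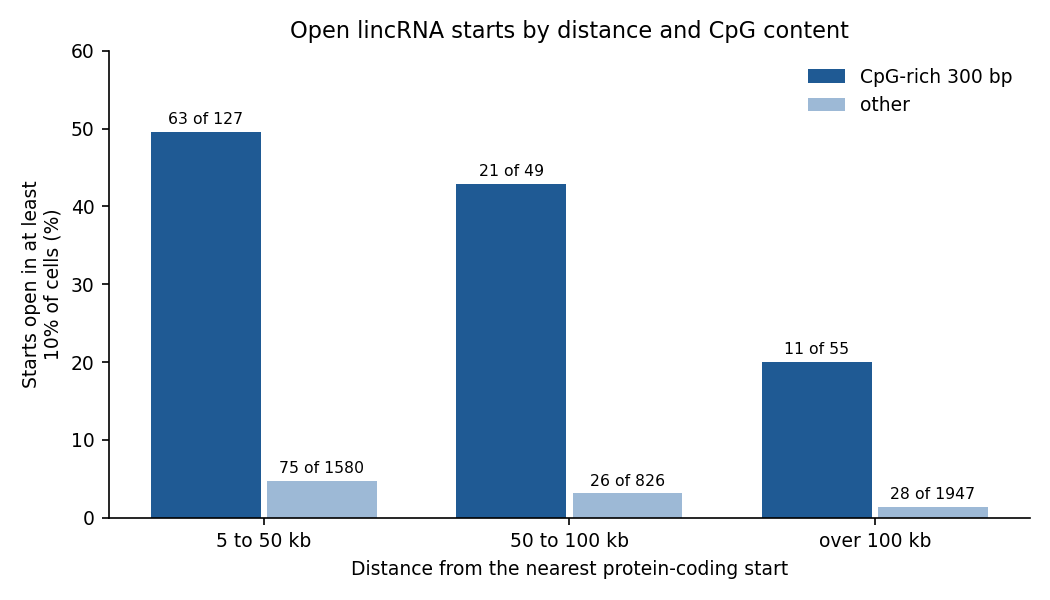
Percentage of lincRNA starts open in at least 10% of cells, by distance from the nearest protein-coding start, for CpG-rich and other starts. Labels give the number open of the number in the class. CpG-rich starts stand at 49.6%, 42.9% and 20% from near to far, and the others at 4.75%, 3.15% and 1.44%.

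The larger part of the open lincRNA starts, 129 of 224, were not CpG-rich, compared with 1237 of the 10152 open coding starts. These 129 had a median open share of 14.6%, against 23.2% for the 95 CpG-rich ones, and 2 of them exceeded 50%, *Neat1* and *Gm26887*. Open starts were rarer in repeats. Where at least 50% of the 2 kb window was soft-masked as repeat in the reference, 2 of 348 starts (0.575%) were open in at least 10%, and 222 of 4236 (5.24%) elsewhere. How reads with several map positions were treated is unknown here, and its part in this difference was not tested. Starts that lie inside the body of a coding gene had a median open share of 0.611% (221 starts), compared with 0.257% for the 4363 outside. Open in at least 10% of cells were 14 of those inside (6.33%) and 210 of those outside (4.81%). The flanks of those inside were fuller as well, with medians of 15.5 and 6 fragments. The median fold over flanks was 1.17 inside and 1.14 outside.

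The strings searched in the most cut 300 bp differed in frequency between open lincRNA starts and open coding starts. The SP/KLF string GGGCGG was present in 49.1% of the 224 open lincRNA starts and 77.1% of the 10152 open coding starts, with 41.9% over all 25391 starts. The ETS string CCGGAAG was present in 11.6% and 21.2% (10.7% over all), and the NRF1 string GCGCATGCG in 1.79% and 4.37% (1.96% over all). In the opposite direction, the AP-1 string TGANTCA was present in 12.5% and 3.12% (6.60% over all), and the GATA string AGATAA in 8.04% and 2.60% (9.27% over all). The E-box string CAGCTG was present in 21.4% and 14.5% (16.5% over all), and the RUNX string TGTGGTT in 6.25% and 2.92% (5.19% over all). In open lincRNA starts the SP/KLF and ETS strings thus had lower shares than in open coding starts, and the AP-1, GATA, E-box and RUNX strings higher shares, as a description with no test. Over all 4584 lincRNA starts, open or not, the AP-1 string was present in 11.5% and the GATA string in 15.7%. The E-box string was present in 18.5% of them and the RUNX string in 8.14%. In the open ones the GATA and RUNX shares were thus below, and the AP-1 and E-box shares near, the level of all lincRNA starts. Of the 4584, 3452 were open in under 1% of cells with a median of 5 fragments, so their 300 bp rest on few ends. The median GC content of those 300 bp was 46.3%, compared with 58.7% in the open starts. The shares also moved with CpG content. Within CpG-rich open starts the SP/KLF string stood at 80.0% for lincRNA and 81.2% for coding starts. Within the other open starts it stood at 26.4% and 47.6%, the AP-1 string at 14.7% and 6.87%, and the GATA string at 11.6% and 8.65%. The E-box string stood at 13.7% in both kinds of CpG-rich open start and at 27.1% and 20.4% in the others. In the others the ETS string stood at 8.53% and 9.78%, and the RUNX string at 7.75% and 6.55%. Within CpG-rich open starts the RUNX string stood at 4.21% (4 lincRNA starts) and 2.41%. The NRF1 string was in 4 of the 224 open lincRNA starts in all, too few to read a direction. Among the remaining strings, that of NFY, CCAAT, was present in 32.1% and 37.9% (34.8% over all) and that of CTCF, CNAGGNGGC, in 13.4% and 16.7% (10.3% over all). That of CREB, TGACGTCA, was present in 3.12% and 4.43% (2.08% over all), that of YY1, AAGATGGC, in 2.23% and 6.31% (3.64% over all) and the TATA string, TATAAA, in 4.91% and 3.53% (11.0% over all). All were searched on both strands, and none of the 12 contains another.

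Noncoding RNAs with a known role were looked up from a list of 78 names, of which 29 were among the lincRNA starts. The others were annotated as another gene type (32), lay within 5 kb of a coding start (4) or in the chromosome 17 stretch (1), or had no such name in the annotation (12). Names were matched as written, so RNAs of the list that are annotated under another symbol can be missing from the counts below. The median open share of the 29 was 8.30%. In this list 11 starts were open in at least 10% of cells, 12 in 1 to 10% and 6 in under 1%, and 21 stood at least 2-fold over their flanks. Over all 25391 starts 40.9% were open in at least 10% and 61.7% stood at least 2-fold over flanks, and over all lincRNA starts 4.89% and 25.3%. Names on such a list were chosen for being studied, so these shares are set beside the counts as a description.

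*Mir17hg*, host of a microRNA cluster with roles in proliferation and survival, was open in 36.6% of cells (34.9 to 38.3) with 1652 fragments. *Mir155hg*, host of a microRNA of immune and stem cells, was open in 27.7% (26.1 to 29.3) with 1157 fragments. The small nucleolar RNA hosts *Snhg12*, *Snhg6* and *Snhg20* were open in 22.9%, 22.7% and 10.6%, and *Epb41l4aos*, whose window holds a small nucleolar RNA, in 31.8% (30.2 to 33.5). *Mir9-3hg* and *Mir124a-1hg*, hosts of microRNAs best known from neurons, were at 9.33% and 8.30%.

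*Lockd*, which starts 8.69 kb from *Cdkn1b*, the gene of the cell-cycle inhibitor p27, was open in 41.4% (39.7 to 43.2) and stood 118-fold over its flanks. *Pvt1*, 52.6 kb from *Myc*, was open in 8.88% (7.90 to 9.94) and 37.9-fold over its flanks. *Trp53cor1*, near the p53 target *Cdkn1a*, was open in 5.82% (5.03 to 6.71), but its flanks held 153 fragments and the window was 1.36-fold over them. *Lncpint*, a p53-induced RNA, was open in 16.1% and 4.29-fold over flanks of 142.5 fragments. *Mirt1* was open in 21.3% and *Ptgs2os2*, a regulator of inflammatory genes in macrophages, in 9.49%.

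The other known lincRNAs were open in 0.161 to 6.40% of cells. *H19* and *Meg3*, both expressed from the maternal allele only, were open in 4.28% (3.60 to 5.05) and 3.44% (2.83 to 4.15), at 5.59-fold and 2.71-fold over their flanks. The window of *H19* also holds the start of the microRNA *Mir675*. *Mirg*, a microRNA host of the same cluster as *Meg3*, had 5 fragments (0.161%). *Bloodlinc*, named from red cell precursors, was open in 4.18% and stood 4.93-fold over its flanks. *Bvht* and *Carmn*, known from the heart, were open in 6.40% and 3.76% and stood 10.9-fold and 3.26-fold over theirs. *Miat* was at 4.05%, 2.01-fold over its flanks, and *Hotair* of the HoxC cluster at 2.57%, below the level of its own flanks at 0.901-fold. The starts of *Platr4*, *Platr7*, *Gm14005*, *Halr1* and *Rmst* had between 7 and 15 fragments each, which is 0.225 to 0.483% of cells. *Gm14005*, also known as *Morrbid*, sets the lifespan of short-lived myeloid cells.

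For 18 lincRNA starts the nearest coding start belonged to 1 of the 31 marker genes, at distances up to 657 kb. Of these, 0 were open in at least 10% of cells, and with 4.89% of all lincRNA starts open a count of 0 in 18 says nothing particular of them. The highest was *Mannr*, 657 kb from *Mecom*, with 2.51% of cells (1.99 to 3.12) and 28.7-fold over its flanks. *D030044L04Rik*, 7.76 kb from *Cxcl12*, had 2.19%, and *Gm28401*, 262 kb from *Meis1*, had 0.997%.

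Loci present in many copies can look open because several copies feed 1 window. They can be recognised by bases covered by more than 2 fragments of the same cell. A diploid cell holds 2 copies of a single-copy base before it replicates its DNA, and a cycling cell can hold more. The 3 lincRNA starts of the excluded chromosome 17 stretch show the pattern. At *Gm26917*, *Gm42418* and *AY036118* fragments were found in 98.8%, 99.2% and 98.9% of cells, with 58573, 70514 and 62262 fragments, and 87.0%, 86.4% and 83.6% of those cells had a base under more than 2 fragments. A start was called multi-copy where at least 5 cells and at least 5% of the cells with a fragment did. Over all starts 0.0354% were called, 9 coding starts led by *Gm10800* at 24.5%, and 0 of the 4584 lincRNA starts were. Among lincRNA starts with at least 5 such cells, of which there were 65, the highest share was 4.43%, at *Gm45897*.

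Cells with more than 2 overlapping fragments became more frequent with the number of fragments in the window. *6720427I07Rik* had 94 such cells (3.58% of those with a fragment), *Neat1* 63 (2.54%), *1700096K18Rik* 63 (2.75%) and *Gm26901* 59 (2.82%). Starts with about the same number of fragments, which for the first pair were the fullest windows of all, had medians of 76, 76, 53 and 38 such cells. The starts nearest in fragments were therefore used as a second standard, chosen after these values were seen, with a call at 3 times their median and at least 5 cells. By this standard 0.843% of all starts were called, and 18 of the 4584 lincRNA starts. Only starts with at least 5 such cells could be called. Of the 65 such lincRNA starts 18 were, and of the 4911 such coding starts 196. Among starts open in at least 10% of cells, 15 of 224 lincRNA and 187 of 10152 coding starts were called. Within both of these groups lincRNA starts were called more often than coding starts, as a description. *Mir17hg* had the most such cells among the 18, 34 against a median of 8, followed by *Gm47732* with 24 against 8 and *Gm42797* with 17 against 2. *Gm45897* and *Gm30978* each had 9 against a median of 0. Where the median is 0 the call rests on the minimum of 5 cells alone. *Gm47732* and *Gm30918*, which had 13 against 2, belong to the chromosome 13 run of open starts. Cell doublets and cycling cells were kept in the data, and their part in these values was not tested.

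**Figure D5:**
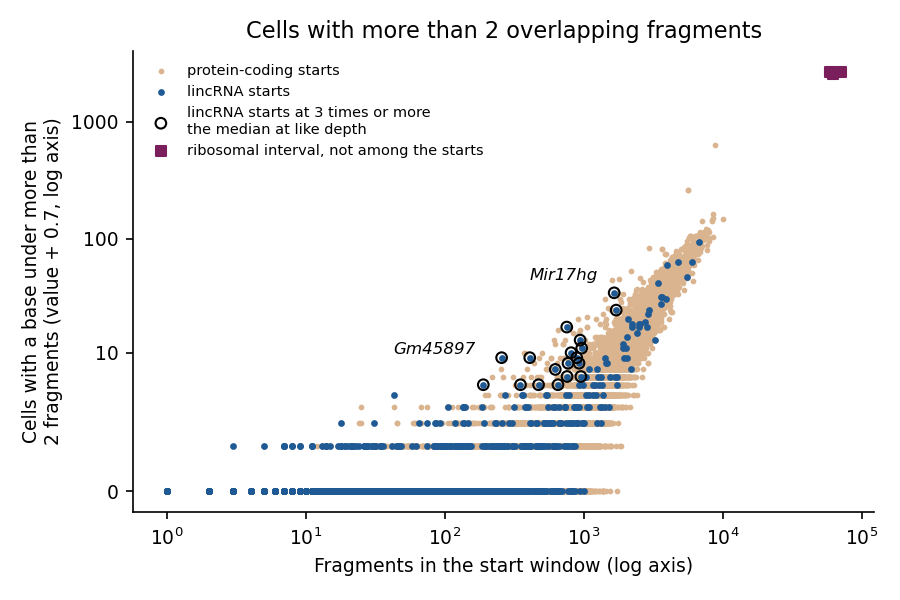
Number of cells with a base under more than 2 of their own fragments, plotted as the value plus 0.7 on a log axis, against the fragments in the start window on a log axis. Points are lincRNA and coding starts, and squares the 3 starts of the excluded ribosomal stretch. Circles mark the 18 lincRNA starts with at least 5 such cells and 3 times or more the median of starts with like fragments. The squares lie between 2570 and 2673 cells, whereas none of the 4584 lincRNA starts exceeds 94.

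A further 34 lincRNA starts passed 5% with fewer than 5 such cells, 31 of them with 1 cell, and none of the 34 had fragments in more than 31 cells. *Gm48968* on chromosome 14 had 43 fragments in 31 cells, and 4 of those cells (12.9%) had a base under more than 2 fragments. At *Gm11466* it was 2 of 13 cells, and at *A930014D07Rik* 2 of 24. At this depth a multi-copy locus of low openness was not detectable by the count of cells.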

How the data were processed

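Per the file headers, the authors processed the ATAC library with Cell Ranger ARC 2.0.2 and its mm10 reference, in which duplicates of a read pair count as 1 fragment and cells are called jointly from ATAC and RNA. They deposited the position of every fragment and, for every barcode, counts of fragments and the cell call. None of these counts is normalized. No source used here gives a shift of fragment ends for the transposase or the treatment of reads with several map positions. The antibody counts were not used, and the RNA library was not analysed here.

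Names and lengths of chromosomes matched GRCm38, and 0 fragments or genes ended beyond them. Gene starts came from GENCODE vM21, and sequence and repeat masking from the RefSeq copy of GRCm38. Fragments of 3108 cells were counted over windows of 1 kb to either side of each start, with any overlap counted. Doublets were kept. The cell filter used only the limit of 3000 fragments in peaks. Counting ran in Python 3.11.15 with numpy 2.4.6, pandas 2.3.3, scipy 1.17.1 and numba 0.67.0, and figures in matplotlib 3.10.9. The counting steps were tested on simulated fragments and returned the simulated counts.

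With 1 library no p-value was computed. Depth limits precision, as the median window held 9 fragments. The genes named are the 15 starts with the highest open share, starts called multi-copy (at most 10, by the share of cells with more than 2 overlapping fragments), those on a list of known noncoding RNAs, the 5 with the highest fold over flanks among starts with at least 100 fragments, and the 3 nearest to the 5 kb limit on each side that were open in at least 10% of cells. Starts sharing a window or a run, starts next to marker genes, those near a coding transcript start, the chromosome 17 starts, and those over the standard of like depth or with few cells were named after their values were seen. The regions and lists were chosen with earlier results of these data known. Alternatives changed the window, the overlap, the cells, the depth, the distance, the start, the limits and the flanks. A result that needs a withheld item is not reported here.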

Additional observations from a re-analysis of the deposited data

Results flagged for a closer look

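Data outside the comparisons also held signal at these starts. The 649 called cells with 3000 or fewer fragments in peaks gave 12307 fragments in the lincRNA windows, which is 9.62 per 1000 of their 1279078 fragments, compared with 9.89 per 1000 in the cells used. Ranked by fragments in these cells, 13 of the 15 starts with the highest open share were again among the 15 highest.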

How the results depend on the processing

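No paired analysis was possible because there was 1 ATAC library and the result comes from no test. Values below are, in order, the median open share, the number of starts open in at least 10% of cells, the number at least 2-fold over flanks and the ratio of fragments per window to coding starts, which were 0.257%, 224, 1161 and 0.101. Thinning each cell to 3000 fragments gave 0.0644%, 47, 719 and 0.0995, since fewer fragments were counted. Coding starts open in at least 10% of cells fell under the same thinning to 22.1%, and lincRNA starts to 1.03%. Counting as open at 5% or 20% gave 439 and 95 starts. The ratio was 0.0850 in windows of 500 bp to either side, 0.107 and 0.0947 for starts over 2 and 10 kb from coding starts, 0.0973 with the distance taken from coding transcript starts, 0.0892 without windows that hold another gene start and 0.0969 at the transcript start with the most fragments. The multi-copy count of 0 became 11 at a limit of 2% of cells and 18 by the standard of like depth, which was added after the data were seen. It was 0 under each of the other alternatives run. The remaining alternatives gave medians from 0.161 to 0.290%, open counts from 164 to 248 and counts over flanks from 977 to 1255. Depth limits all open shares, and with 1 preparation the spread between animals is unknown.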
